A study of Mus musculus with 9 samples.

Results

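The matrix metalloproteinases (MMPs), the ADAMTS proteases and their tissue inhibitors (TIMPs) set how fast the extracellular matrix around blood vessels is cut and rebuilt. Here 10 genes of these families were followed in lung endothelial cells (ECs): Mmp2, Mmp3, Mmp14, Adamts1, Adamts4, Adamts9, Timp1, Timp2, Timp3 and Timp4. All probe sets that the array annotation assigns to 1 of these genes alone were taken, which gave 25 of 45101 probe sets, and the 10 genes stood among 18193 genes with at least 1 such probe set. Gene expression was measured with Affymetrix whole-genome mouse expression arrays in CD31-positive cells sorted from lungs of female NSG mice (severely immunodeficient, and thus able to host human cells), after cells bearing CD45, CD11b, CD326, CD140a, CD140b or GFP had been removed. The 9 arrays formed 3 groups of 3 biological replicates. The metastasis anti-VEGF group carried lung metastases of MDA-MB-231-LM2, a lung-seeking derivative of a human breast cancer line given intravenously, and received the anti-VEGFA antibody B20 at 10 mg/kg 2 times a week. The metastasis IgG group carried the same metastases under control IgG, and both were sampled 3 weeks after injection, which was given at 6 to 8 weeks of age. The healthy IgG group, of matched age, had no tumor and received control IgG. Because the hosts lack most lymphocytes and every metastasis came from 1 human line, the groups model only this setting, and the metastatic mice had been chosen for a comparable bioluminescent load. All values below are log2 intensities of the normalized arrays, in which 1 unit is a doubling.

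As background, MMPs and ADAMTS proteins are zinc-dependent proteases. MMPs cut collagens, basement membrane proteins and many signaling proteins, and Mmp14, a membrane-anchored member, also activates the secreted precursor of Mmp2, a step in which Timp2 acts as the bridge between them. ADAMTS proteases of the aggrecanase group, among them Adamts1, Adamts4 and Adamts9, cut large proteoglycans such as versican. Each TIMP blocks the active site of MMPs, and Timp3, which is held in the matrix, also blocks ADAMTS proteases and is known to hinder binding of VEGF to its receptor Vegfr2.

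Sequences upstream of the transcription start are shown for Mmp14 and Timp1, the members with a listed promoter that rose in metastasis, and for Mmp3, a gene known for its AP-1 control that stayed dim here. RefSeq promoters on build GRCm38.p6 were matched for 8 of the 10 members, all but Adamts4 and Mmp2. The 250 bases before the start were chr14:54431348-54431597 for Mmp14, chrX:20869916-20870165 for Timp1 and chr9:7445572-7445821 for Mmp3, all on the plus strand. Capitals mark matches, on either strand, to the AP-1 motif TGANTCA, the ETS motif AGGAAG and the TATA motif TATAAA, and no marked match overlapped another.
Mmp14: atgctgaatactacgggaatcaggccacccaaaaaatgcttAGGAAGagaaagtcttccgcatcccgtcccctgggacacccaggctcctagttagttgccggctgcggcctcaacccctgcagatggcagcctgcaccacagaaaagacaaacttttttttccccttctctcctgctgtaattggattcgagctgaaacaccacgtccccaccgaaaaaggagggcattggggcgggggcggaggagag
Timp1: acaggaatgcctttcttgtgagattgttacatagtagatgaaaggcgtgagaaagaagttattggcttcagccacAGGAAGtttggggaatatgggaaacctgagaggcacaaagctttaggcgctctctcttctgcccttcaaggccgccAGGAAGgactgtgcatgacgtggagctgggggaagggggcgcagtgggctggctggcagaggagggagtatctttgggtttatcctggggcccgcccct
Mmp3: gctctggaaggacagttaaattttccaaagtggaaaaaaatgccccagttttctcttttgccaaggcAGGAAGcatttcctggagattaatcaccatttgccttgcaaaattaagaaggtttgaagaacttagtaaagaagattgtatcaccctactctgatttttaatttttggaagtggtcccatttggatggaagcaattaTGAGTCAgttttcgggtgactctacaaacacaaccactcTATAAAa
The ETS letters stood in the windows of 5 of the 8 members, 2 times in that of Timp1, and in 29.5% of all 32851 windows of this length. The AP-1 letters stood only in that of Mmp3 among the 8, and in 6.75% of all windows. The TATA letters stood in 2 of the 8 (Mmp3 and Adamts1) and in 12.4% of all windows. The NF-kB motif stood in 1 of the 8 (Adamts9) and in 7.25% of all. A match of letters is a description and shows no binding, and the lack of one says only that these letters are not in the window.

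The sorted cells carried endothelial markers. All 10 endothelial markers read for this check, Pecam1 and Cdh5 among them, lay above at least 88.8% of all probe sets in every array, and their mean level stayed within 12.76 to 12.84 log2 units in all 9 arrays. Single markers did differ from healthy IgG in limma. Emcn was higher by 0.43 in metastasis IgG (adjusted p = 0.039) and by 0.50 in anti-VEGF (adjusted p = 0.017). Eng was lower by -0.38 in anti-VEGF (adjusted p = 0.035). Other lists differed between metastasis IgG and healthy IgG. At the threshold given below, 5.55% of all genes were higher in this comparison and 3.46% lower. Of 11 macrophage and monocyte markers, 8 were higher and none lower in metastasis IgG than in healthy IgG, and their summed linear intensity was 10032 to 13374 in the anti-VEGF arrays and 10748 to 12092 in the metastasis IgG arrays, against 4749 to 6829 in healthy IgG, where Adgre1, C1qa, C1qb, C1qc and Itgam averaged below the level of silent genes defined below. Of 10 fibroblast markers, 4 were higher and 1 lower, with a summed intensity of 15543 to 18774, 15070 to 18691 and 10452 to 18231 in the same order of groups, and of 9 pericyte and smooth muscle markers 2 were higher, with 5792 to 6442, 5896 to 7099 and 4237 to 6413. Of 8 epithelial markers 2 were higher, Sftpb by 0.92 and Sftpd by 1.18, with a summed intensity of 14362 to 16341 in anti-VEGF and 13344 to 17974 in metastasis IgG, against 5834 to 13805 in healthy IgG. The brightest of the 8, Sftpc, weighed most in these sums and did not pass (0.88, adjusted p = 0.14, limma). It averaged 13.53 in anti-VEGF, 13.52 in metastasis IgG and 12.65 in healthy IgG. In both metastatic groups it was brighter than every endothelial marker, so high endothelial markers do not show that other cells were absent. Of 4 neutrophil markers 1, S100a9, was higher by 0.65, with 1297 to 1479 in anti-VEGF and 966 to 1284 in metastasis IgG, against 780 to 945 in healthy IgG. Of 4 mesothelial markers 1, Wt1, was higher by 1.13, though it averaged below the level of silent genes in every group. Of 4 platelet markers 1, Ppbp, was lower by -0.54. The platelet list summed to 1859 to 1913 in anti-VEGF, 1442 to 1639 in metastasis IgG and 1752 to 1816 in healthy IgG. The 3' minus 5' difference of the beta-actin control probe sets, a measure of RNA integrity, was 0.53 to 0.62 log2 units in anti-VEGF, 0.49 to 0.55 in metastasis IgG and 0.61 to 0.62 in healthy IgG. In bulk samples fewer cells of a type and less RNA per cell cannot be told apart, and the part of these cells and of RNA integrity in the results below was not tested.

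**Figure D1:**
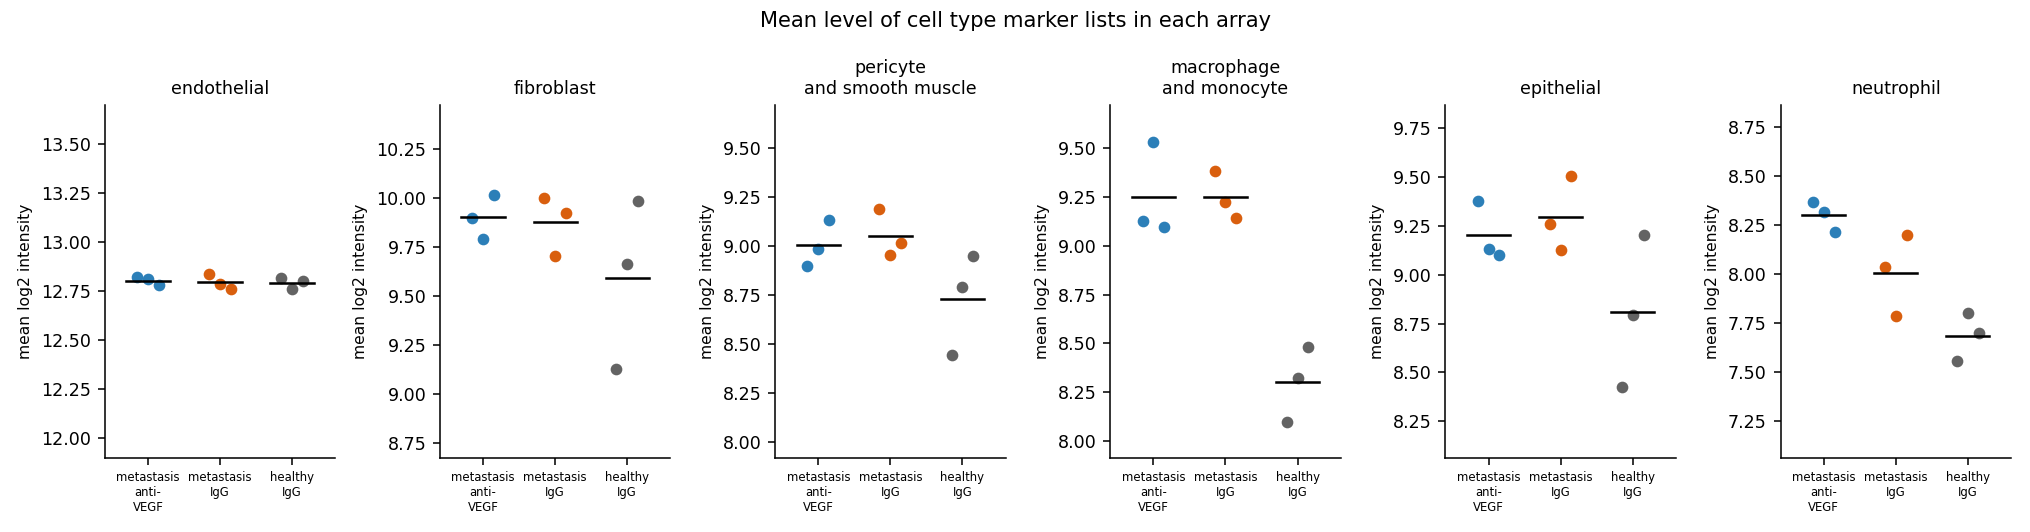
Mean log2 intensity (y axis) of the marker lists of 6 cell types in each array, by group (x axis), with 1 point per array and bars at group means. The mean of the endothelial list stayed level, whereas that of the macrophage list was higher in all 6 metastatic arrays than in the 3 healthy arrays.

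To ask which of these genes changed in ECs of metastatic lungs, metastasis IgG was compared with healthy IgG. Of the 10 members, 3 were higher (Adamts4, Mmp14 and Timp1) and none was lower at a Benjamini-Hochberg adjusted p under 0.05 in limma, whereas 5.55% of all 18193 genes were higher and 3.46% lower (1010 and 630 genes, or 863 and 828 once each array was centred on its median). The median change of the 10 members was 0.26 log2 units and that of all genes was -0.0011. The groups did not overlap for 6 members, 5 higher and 1 lower, against 15.4% and 13.6% of all genes. At the level of single probe sets, 8 of the 25 were called higher and 1 lower, against 4.43% and 2.98% of all 34945 probe sets of 1 gene, and 10 were higher and 4 lower without overlap, against 14.1% and 13.4%. The 8 were 3 of Timp3, 2 of Adamts4, 2 of Mmp14 and 1 of Timp1. Probe sets of 1 gene are repeated readings of it in the same arrays, so the 25 are not separate results to set against these shares.

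**Figure D2:**
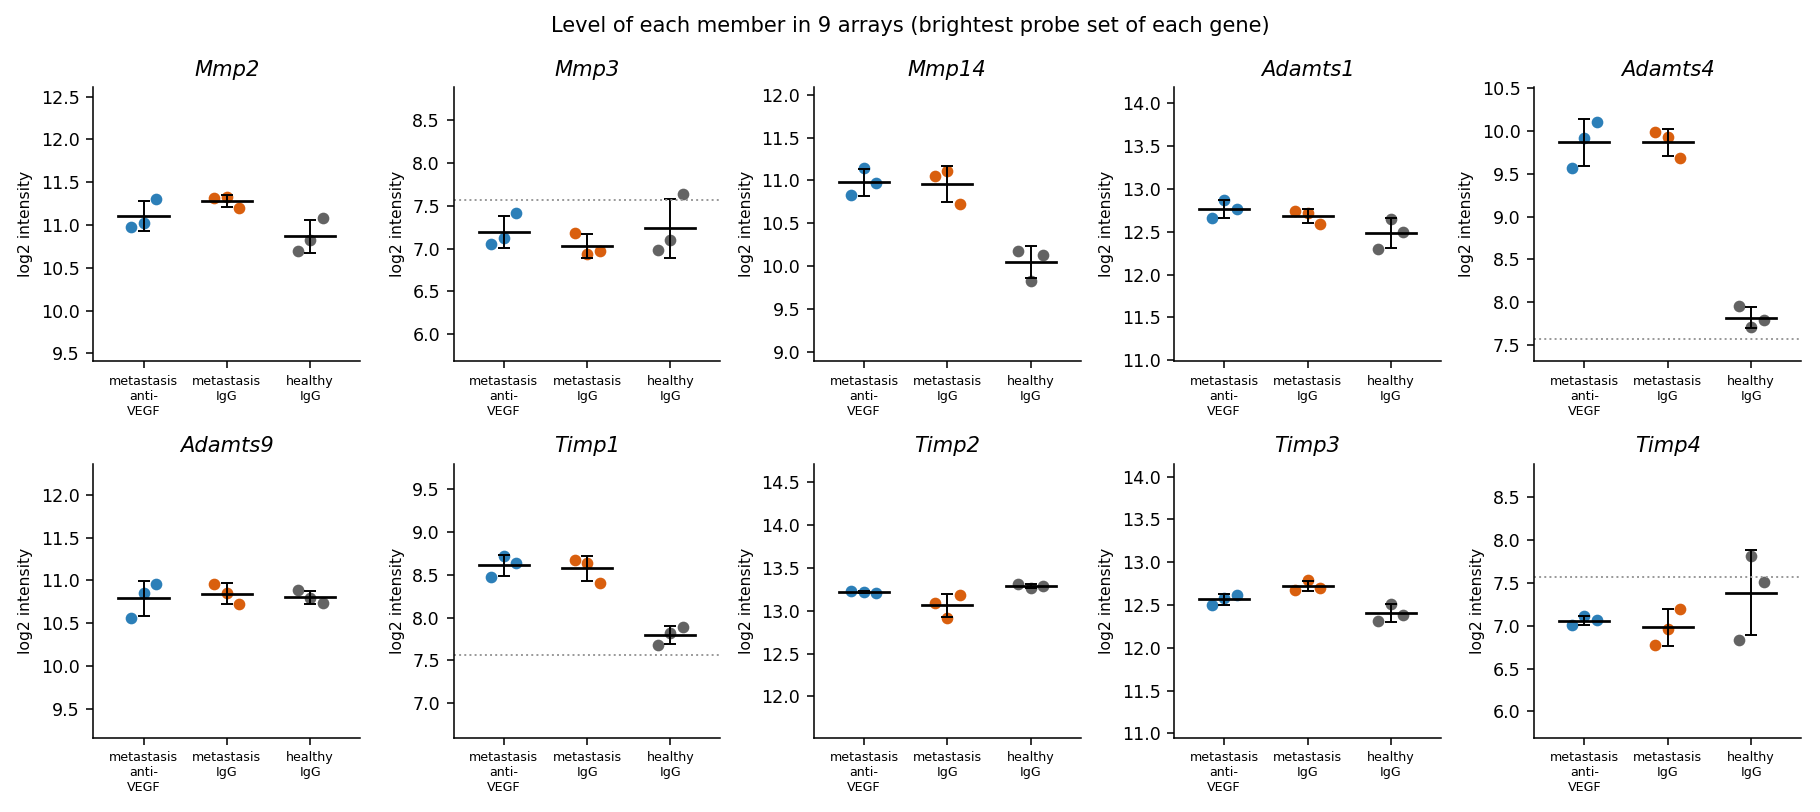
Log2 intensity (y axis) of the brightest probe set of each member in the 3 arrays of each group (x axis), with 1 point per array and mean and SD as bars. The dotted line, where it falls in a panel, is the level of silent genes at 7.57, and all panels span the same number of log2 units. Adamts4, Mmp14 and Timp1 stood higher in all 6 metastatic arrays than in any healthy array.

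Adamts4, the aggrecanase first known for cutting aggrecan in cartilage, showed the steepest rise. Its brighter probe set (1455965_at) read 9.57, 9.92 and 10.11 in the anti-VEGF arrays and 9.99, 9.93 and 9.69 in the metastasis IgG arrays, against 7.95, 7.72 and 7.80 in healthy IgG. The 3 healthy arrays lay close together and well below all 6 metastatic arrays. The change in metastasis IgG was 2.05 ± 0.11 log2 units (SE, n = 3 each), a 4.13-fold rise with an adjusted p of 4.618e-05 in limma, and it ranked 15 of 18193 genes by p. The other Adamts4 probe set (1452595_at) rose by 1.81 ± 0.14 (SE), with an adjusted p of 0.00033 in limma over all probe sets. To judge faint signals, the 95th percentile of the levels of 44 olfactory receptor probe sets, 7.57, was taken as the level of silent genes. In healthy IgG this second probe set averaged 7.29, below that level, so that its rise is better read as at least 2.89-fold, the metastasis IgG mean over the level of silent genes. The first probe set averaged 7.82, just above it.

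Mmp14 (also called MT1-MMP), the membrane-anchored collagenase, rose as well. Its brightest probe set (1448383_at) read 10.83, 11.15 and 10.97 in anti-VEGF and 11.05, 11.11 and 10.72 in metastasis IgG, against 10.17, 9.83 and 10.13 in healthy IgG. Here too no metastatic array reached down to the healthy arrays. The change was 0.91 ± 0.13 log2 units (SE), or 1.89-fold, with an adjusted p of 0.0046 in limma. Its 3 probe sets did not all move alike. 1416572_at gave 1.04 ± 0.19 (SE, adjusted p = 0.016, limma over all probe sets), whereas 1440920_at, which cites a different transcript record, gave 0.20 ± 0.10 (adjusted p = 0.30) with overlapping groups.

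The secreted partner of Mmp14, the gelatinase Mmp2, did not pass. It read 10.98, 11.03 and 11.31 in anti-VEGF and 11.31, 11.32 and 11.20 in metastasis IgG, against 10.70, 10.83 and 11.08 in healthy IgG. The metastasis IgG arrays lay above all healthy arrays, by a change of 0.41 ± 0.11 log2 units (SE, adjusted p = 0.056, limma), and the second probe set gave the same 0.41 with overlapping groups (adjusted p = 0.22). The healthy array with the lowest Mmp2, replicate 1, also had the lowest mean of the fibroblast markers (9.13, against 9.66 and 9.98 in the other healthy arrays). It was the lowest healthy array for the pericyte, macrophage and epithelial lists as well (8.45, 8.10 and 8.43). In metastasis IgG the array with the lowest fibroblast mean, replicate 2 (9.71), had the highest Mmp2. In anti-VEGF the array with the highest fibroblast mean, replicate 3 (10.02), had the highest Mmp2. A link between Mmp2 and these lists was not tested. Leaving out single arrays gave changes of 0.32 to 0.52, with adjusted p up to 0.15 in limma. The 0.52 came without healthy replicate 3, the array with the highest Mmp2 among the healthy ones, and there Mmp2 was called (adjusted p = 0.029, limma). Removing that array by itself lowers the healthy mean.

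Mmp3 (stromelysin 1), a protease that cuts many matrix proteins and activates other MMPs, was dim. It averaged 7.20 ± 0.19 in anti-VEGF, 7.03 ± 0.14 in metastasis IgG and 7.24 ± 0.35 in healthy IgG (SD, n = 3 each), below the level of silent genes in every group, and its change of -0.21 ± 0.17 (SE) had an adjusted p of 0.51 in limma.

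The remaining ADAMTS members, both expressed well above that level, did not pass. Adamts1, an aggrecanase known to restrain angiogenesis, read 12.66, 12.87 and 12.77 in anti-VEGF and 12.74, 12.72 and 12.59 in metastasis IgG, against 12.30, 12.65 and 12.50 in healthy IgG, and the groups overlapped (change 0.20 ± 0.11, SE, adjusted p = 0.30). Adamts9, a versican-cutting protease, read 10.56, 10.86 and 10.96 in anti-VEGF and 10.96, 10.85 and 10.72 in metastasis IgG, against 10.88, 10.79 and 10.73 in healthy IgG. Its change was 0.04 ± 0.09 (SE), with a 95% interval of -0.17 to 0.25, and its other probe sets gave 0.14 and 0.06. Differences between the changes of Adamts4 and of these 2 relatives were not tested.

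Among the inhibitors, only Timp1 passed in the comparison of genes. Timp1, which blocks most secreted MMPs but Mmp14 only poorly, read 8.48, 8.72 and 8.64 in anti-VEGF and 8.68, 8.64 and 8.41 in metastasis IgG, against 7.68, 7.82 and 7.89 in healthy IgG. Metastatic and healthy arrays were clearly apart, with a change of 0.78 ± 0.10 log2 units (SE), 1.72-fold, and an adjusted p of 0.0028 in limma. The healthy mean, 7.80, lay just above the level of silent genes, and Timp1 had only 1 probe set. Timp1 belongs to the secreted-factor list GSP58 that the study drew from lung ECs of the same model, and both Timp1 and Mmp14 are in the study's list of endothelial inflammation genes, so that their direction is not independent evidence.

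Timp3, the matrix-bound inhibitor, showed smaller differences. Its brightest probe set (1449335_at) read 12.50, 12.59 and 12.62 in anti-VEGF and 12.68, 12.79 and 12.70 in metastasis IgG, against 12.31, 12.52 and 12.38 in healthy IgG. The metastasis IgG arrays lay above all others, but the change of 0.32 ± 0.09 (SE) missed the threshold (adjusted p = 0.058, limma). Over probe sets, the other 3 were called higher, by 0.54, 0.40 and 0.35 (adjusted p = 0.0061, 0.021 and 0.038), and the groups did not overlap for any of the 4. All 4 cite 1 transcript record and read the same RNA, and are not independent of each other.

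Timp2, the bridge between Mmp14 and the Mmp2 precursor, had differences of the opposite sign. Its brightest probe set (1433662_s_at) read 13.23, 13.22 and 13.20 in anti-VEGF and 13.09, 12.92 and 13.18 in metastasis IgG, against 13.32, 13.26 and 13.28 in healthy IgG. The metastasis IgG arrays lay below all healthy arrays, with a change of -0.22 ± 0.09 (SE, adjusted p = 0.18, limma). All 6 Timp2 probe sets were below 0, between -0.56 and -0.11, 4 of them without overlap, and 1437081_at was called lower (-0.56 ± 0.11, SE, adjusted p = 0.018). On this probe set the arrays read 12.57, 12.54 and 12.39 in anti-VEGF and 12.36, 12.07 and 12.42 in metastasis IgG, against 12.87, 12.78 and 12.89 in healthy IgG.

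Timp4, the family member with the most restricted tissue range, was as dim as Mmp3. Its brighter probe set averaged 7.06 ± 0.06 in anti-VEGF, 6.98 ± 0.21 in metastasis IgG and 7.39 ± 0.50 in healthy IgG (SD, n = 3 each), below the level of silent genes in all groups. The healthy arrays read 6.84, 7.81 and 7.51, a spread wider than in either metastatic group. The change was -0.41 ± 0.23 (SE, adjusted p = 0.34, limma). Leaving out single arrays gave -0.68 to -0.19, with adjusted p up to 0.69 in limma. The -0.68 came without healthy replicate 1, the lowest of the 3 (adjusted p = 0.044, limma), and removing that array by itself raises the healthy mean.

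**Figure D3:**
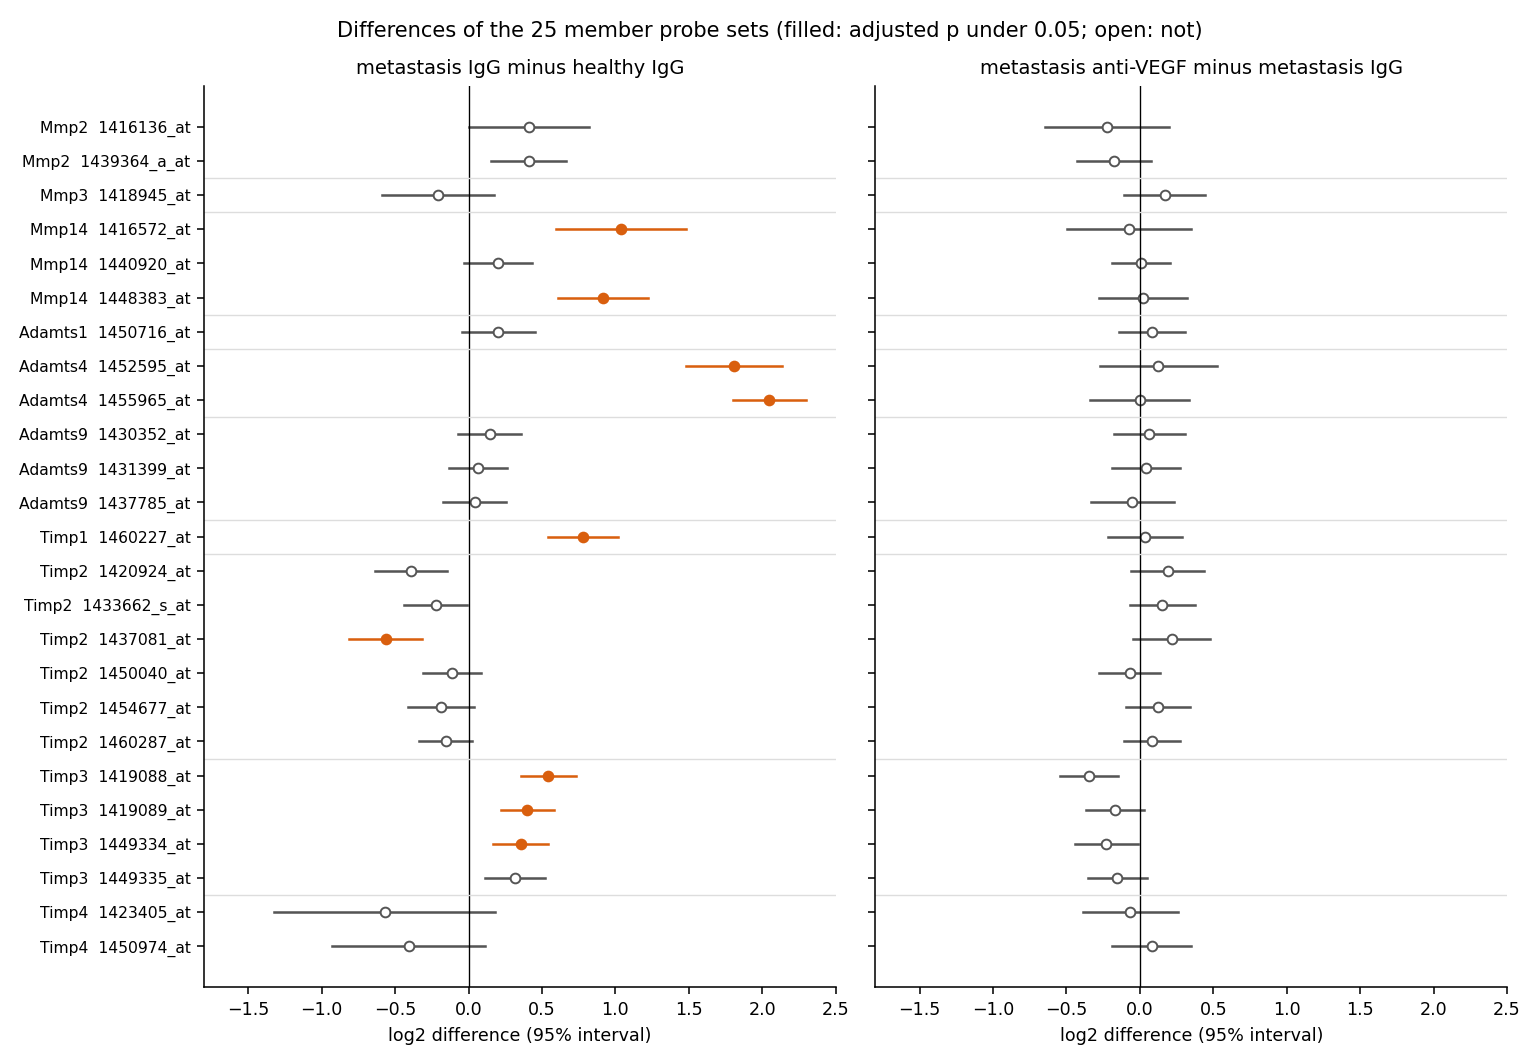
Log2 difference (x axis) with its 95% interval for each of the 25 probe sets (y axis), on the left for metastasis IgG minus healthy IgG and on the right for metastasis anti-VEGF minus metastasis IgG. Filled points passed an adjusted p under 0.05 over all probe sets. On the left 9 are filled (8 higher, 1 lower), on the right none.

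Over the 9 arrays, Adamts4, Mmp14 and Timp1 followed each other, with Pearson correlations of 0.97 for Timp1 and Adamts4, 0.97 for Adamts4 and Mmp14, and 0.96 for Timp1 and Mmp14. Timp2 and Timp3 ran against each other (-0.86). These values describe 9 arrays that share their group differences, and a shared rise in metastasis alone gives a high value. Among all genes the pattern of Adamts4 was most like those of Hif1a (0.997), Sting1 (0.996) and Ifi202b (0.995). That of Mmp14 was most like Emilin1 (0.993), Agrn (0.988) and Keap1 (0.987), and that of Timp1 was most like Csf2rb (0.997), Spsb1 (0.990) and Abca1 (0.990).

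To ask whether VEGF blockade altered these genes in metastatic lungs, metastasis anti-VEGF was compared with metastasis IgG. None of the 10 members was called, in limma, and none had an unadjusted p under 0.05, against 8.04% of all genes at that unadjusted threshold. No gene among the 18193 was called (0%). The median change of the members was 0.03 log2 units and that of all genes was -0.006. For Adamts4 the difference was -0.0016, with a 95% interval of -0.33 to 0.33. For Mmp14 it was 0.02 (-0.27 to 0.31), and for Timp1 0.04 (-0.21 to 0.28). The bounds nearest to a fall back to the healthy level, -0.33, -0.27 and -0.21, were smaller in size than the rises over healthy IgG of 2.05, 0.91 and 0.78. Those rises have 95% intervals of their own (1.80 to 2.29, 0.61 to 1.22 and 0.55 to 1.01), and both comparisons share the metastasis IgG arrays.

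The comparison of metastasis anti-VEGF with healthy IgG shared the healthy arrays with the first comparison and called the same 3 members higher and none lower, against 4.15% and 2.29% of all genes. The groups did not overlap for 4 members that were higher and 1 that was lower, against 13.8% and 13.1% of all genes. Of the 25 probe sets 5 were called higher (2 of Adamts4, 2 of Mmp14 and 1 of Timp1) and none lower, against 3.32% and 2.09%. Here too, probe sets of 1 gene are not separate results to set against these shares. Adamts4 was higher by 2.05 ± 0.14 log2 units (SE, adjusted p = 0.00016), Mmp14 by 0.94 ± 0.12 (adjusted p = 0.0036) and Timp1 by 0.82 ± 0.10 (adjusted p = 0.0024), all in limma. The other 7 did not pass, with changes between -0.33 for Timp4 and 0.28 for Adamts1.

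On their brightest probe sets, the group means of Timp3 and Timp2 under anti-VEGF lay between those of metastasis IgG and healthy IgG, and no difference passed the test. On the Timp2 probe set 1450040_at anti-VEGF was lowest (12.27, against 12.34 in metastasis IgG and 12.45 in healthy IgG). All 4 Timp3 probe sets were below 0 against metastasis IgG (-0.35, -0.17, -0.23 and -0.15) and none overlapped. Of all probe sets, 6.58% were lower without overlap. The 4 read the same RNA in the same arrays and are not 4 separate results to set against that share. On 1419088_at the arrays read 11.73, 11.58 and 11.66 in anti-VEGF, against 11.98, 12.00 and 12.03 in metastasis IgG, and healthy IgG had read 11.39, 11.54 and 11.46. The anti-VEGF arrays lay between the others on this probe set, yet its difference of -0.35 ± 0.09 (SE) had an unadjusted p of 0.0034 and an adjusted p of 0.49 in limma. Over all 25 probe sets, 2, both of Timp3, had an unadjusted p under 0.05, against 7.63% of all probe sets. For Timp2, 5 of 6 probe sets were above 0 (-0.07 to 0.22), and 2 were higher without overlap, against 6.13% of all probe sets. At the gene level 1 member, Timp2, was higher and 1, Timp3, lower without overlap, against 6.2% and 6.91% of all genes. The gene-level differences were -0.15 (95% interval -0.34 to 0.04) for Timp3 and 0.15 (-0.06 to 0.37) for Timp2. Mmp2 differed by -0.17 (-0.42 to 0.07), and the remaining members by -0.05 to 0.17.

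The rest of the protease system was read from 4 lists of related genes. The counts in metastasis IgG against healthy IgG stand against 5.55% of all genes higher and 3.46% lower. Among 15 measured other MMPs, 1 was higher and none lower in metastasis IgG than in healthy IgG, with a median of 0.01 log2 units. It was Mmp12, the macrophage metalloelastase, which read 7.41, 9.72 and 7.04 in anti-VEGF and 7.67, 8.21 and 8.66 in metastasis IgG, against 6.24, 6.71 and 6.78 in healthy IgG. The metastatic arrays varied widely. All healthy arrays lay below the level of silent genes, and Mmp12 was at least 1.53-fold higher in metastasis IgG (measured difference 1.60 ± 0.24 log2 units, SE, adjusted p = 0.0058, limma). Of the 15, 8 averaged below that level in healthy IgG, Mmp12 among them. The mean of the macrophage list was also higher in both metastatic groups than in healthy IgG. In metastasis IgG replicates 1, 2 and 3 it read 9.38, 9.22 and 9.14, while Mmp12 rose in that order. In anti-VEGF it read 9.13, 9.53 and 9.09, highest in the array with the highest Mmp12. A link between the list and Mmp12 was not tested.

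Among 18 other ADAMTS and ADAMTS-like genes, 3 were higher and 3 lower, with a median of -0.02. Adamts12, a protease known to cut cartilage oligomeric matrix protein, read 7.66, 7.81 and 7.89 in anti-VEGF and 8.15, 8.14 and 8.38 in metastasis IgG, against 6.87, 6.67 and 6.72 in healthy IgG. Here too the healthy arrays were below the level of silent genes, and Adamts12 was at least 1.57-fold higher in metastasis IgG (measured difference 1.47 ± 0.10, SE, adjusted p = 0.00014, limma). Under anti-VEGF it differed from metastasis IgG by -0.43, with no overlap but an adjusted p of 0.42. Adamts7, a relative of Adamts12 and like Timp1 a member of GSP58, was higher by 0.63 (adjusted p = 0.033), and Adamtsl3, an ADAMTS-like protein without protease domain, was lower by -0.66 (adjusted p = 0.0061).

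Among 20 activators, inhibitors and partners of the proteases, 4 were higher and 1 lower, with a median of 0.19. Adam12, a membrane metalloprotease, was higher by 0.96 ± 0.20 (SE, adjusted p = 0.022) and its relative Adam19 by 0.77 ± 0.17 (SE, adjusted p = 0.028), whereas Pcsk5, a proprotein convertase, was lower by -0.66 ± 0.11 (SE, adjusted p = 0.0085). Without metastasis IgG replicate 1, only 1 of the 20 was called higher.

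Of the 4 lists, the substrates held the largest changes. Among 16 proteoglycan and matrix substrates, 4 were higher and 1 lower, with a median of 0.17. Vcan (versican), a substrate of Adamts4, read 9.66, 9.64 and 10.10 in anti-VEGF and 9.35, 9.89 and 9.41 in metastasis IgG, against 7.44, 7.67 and 7.70 in healthy IgG. As for Adamts4, all 6 metastatic arrays lay above the healthy ones, and the change in metastasis IgG was 1.95 ± 0.15 log2 units (SE, 3.86-fold, adjusted p = 0.00027, limma). Fn1 (fibronectin) rose by 1.70 ± 0.16 (SE, adjusted p = 0.00059). Tnc (tenascin C), below the level of silent genes in all healthy arrays, was at least 1.98-fold higher (measured difference 1.19 ± 0.19, SE, adjusted p = 0.0068). Vcan and Tnc are also in GSP58. Of the 10 fibroblast markers, Col1a1, Col1a2, Col3a1 and Fap were called higher in the same comparison, by 1.48, 1.44, 0.98 and 0.49, and Inmt lower, by -1.06, while Pdgfra (-0.45), Dcn (-0.35), Tcf21 (-0.23), Lum (0.02) and Postn (0.54) did not pass.

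No gene of the 4 lists was called under anti-VEGF against metastasis IgG in limma, and 1 of 15, 3 of 18, 1 of 20 and 2 of 16 had an unadjusted p under 0.05, against 8.04% of all genes. Against healthy IgG, metastasis anti-VEGF gave 2 higher and none lower of the other MMPs, 2 and 3 of the ADAMTS list, 1 and 1 of the activators, and 5 and 0 of the substrates, against 4.15% and 2.29% of all genes, among which Vcan was higher by 2.20 and Fn1 by 1.47.

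**Figure D4:**
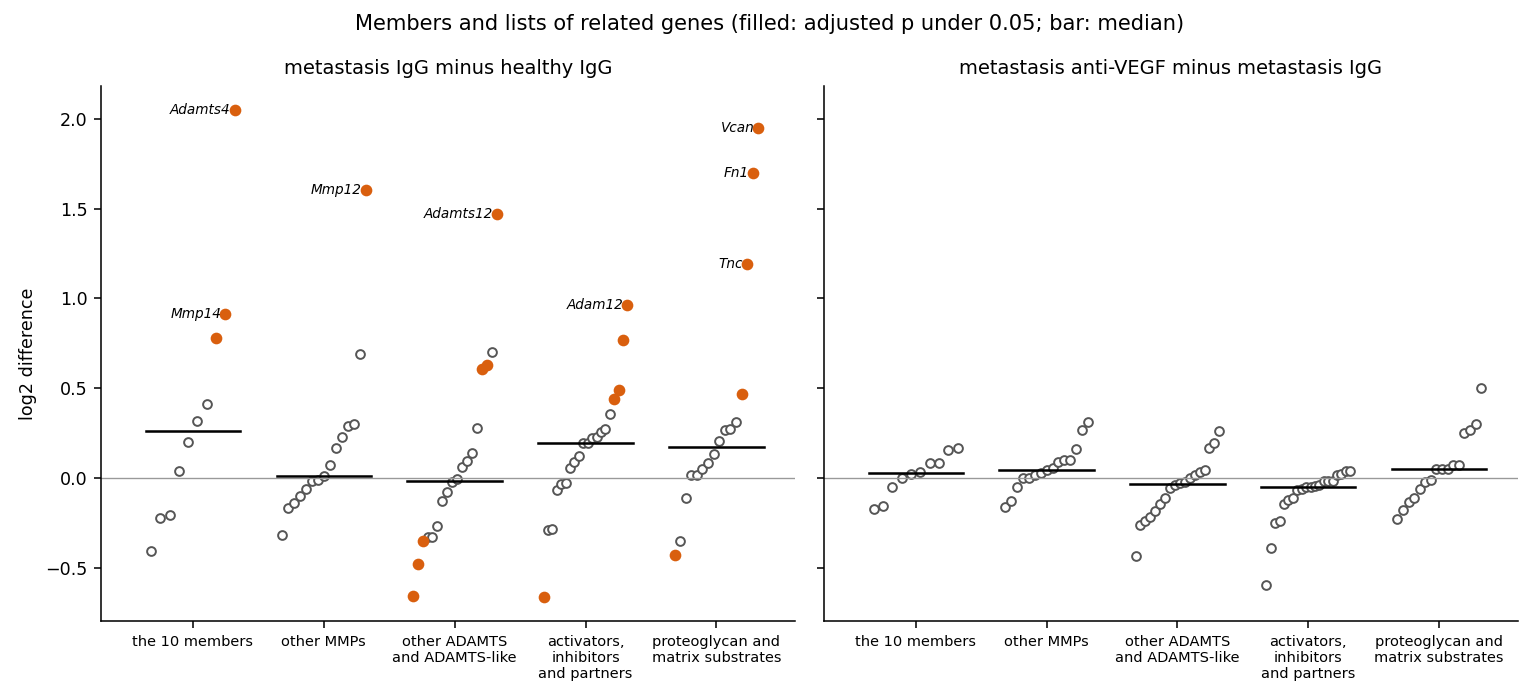
Log2 difference (y axis) of the 10 members and of the genes of 4 related lists (x axis), on the left for metastasis IgG minus healthy IgG and on the right for metastasis anti-VEGF minus metastasis IgG. Filled points passed an adjusted p under 0.05, and bars are medians. Differences are as measured, also for genes below the level of silent genes in healthy IgG. Adamts4 (2.05) and Vcan (1.95) had the highest changes on the left, and no point on the right is filled.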

How the data were processed

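Arrays were processed from 1 ng of total RNA (3' IVT Pico), and the authors normalized them by RMA in Chipster. The deposited values are log2 intensities, used as they are. Of 45101 probe sets, 9211 had no gene name and 932 several genes, and 34945 non-control probe sets of 1 gene remained. A gene was read from its probe set of highest mean over the 9 arrays. For each comparison, lmFit and eBayes (limma 3.58.1, R 4.3.3) were run on its 6 arrays, and p-values were adjusted by Benjamini-Hochberg over 18193 genes or 34945 probe sets, with 0.05 as the threshold. Standard errors (SE) are those of a log2 difference. Lists count measured genes: 15 of 20 other MMPs, 18 of 22 ADAMTS, 20 of 22 activators and 16 of 16 substrates. Members and lists were chosen with earlier results of these data known. Named genes were all members, up to 3 called genes of largest absolute change per list, and the 3 genes correlating best with each called member. The called endothelial, fibroblast, epithelial, neutrophil, mesothelial and platelet markers, and Sftpc, were named after their values were seen, and all fibroblast markers are given. The scripts were tested on simulated data. The number of arrays limits the precision. Same-numbered arrays did not deviate together (correlations -0.076 to 0.014). Between the metastatic groups, differently numbered arrays reached 0.177 (anti-VEGF replicate 1 with metastasis IgG replicate 3) and -0.145 (1 with 2). A shared batch under another numbering was not tested. Alternatives were all 9 arrays in 1 fit, the replicate number as a block, leaving out dim genes, averaging a gene's probe sets, using only those without a shared-sequence suffix, single probe sets, centring on each array's median, renewed quantile normalization, eBayes with trend and robust set, and leaving out each array. Figures were drawn with matplotlib 3.10.9.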

Additional observations from a re-analysis of the deposited data

How the results depend on the processing

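Adamts4, Mmp14 and Timp1 were called higher over healthy IgG in both metastatic groups under all 15 alternatives, with changes in metastasis IgG of 1.93 to 2.14, 0.72 to 1.03 and 0.72 to 0.86. No member was called under anti-VEGF against metastasis IgG in any alternative. In metastasis IgG against healthy IgG, 5 members were called higher with dim genes left out (Mmp2 and Timp3 added) and 5 with trend and robust settings, which also called 1 lower (Timp2). Leaving out 1 array gave 0 to 1 members lower, also in anti-VEGF against healthy IgG, where the 1 is Timp4 without healthy IgG replicate 1. Mmp2 was also called without healthy IgG replicate 3, and Timp3 with all 9 arrays in 1 fit and with the mean of probe sets. Over all genes, trend and robust settings called 2219 in metastasis IgG against healthy IgG and leaving out 1 array 869 to 1478, against 1640, and 1848 and 645 to 1139 in anti-VEGF against healthy IgG, against 1172.

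With the replicate number as a block, 1176 genes were called in metastasis IgG against healthy IgG, against 1640 without it. The labels do not say whether same-numbered arrays share a batch, and their deviations did not go together. The block gave 0 substrates lower in metastasis IgG, and in anti-VEGF against healthy IgG 0 other MMPs higher, 2 activators higher and 1 of the ADAMTS list lower, and changed no member's call.

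List counts moved otherwise as follows, and the cause was not tested. In metastasis IgG against healthy IgG, other MMPs higher were 0 in the fit of all 9 arrays, 2 with the mean of probe sets and 1 to 2 with an array left out, and other MMPs lower were 1 with trend and robust settings and 0 to 1 with an array left out. With an array left out, activators higher were 1 to 4, the ADAMTS list lower 1 to 3 and substrates lower 0 to 1. In anti-VEGF against healthy IgG, the fit of all 9 arrays gave 1 other MMP, 1 of the ADAMTS list and 2 activators higher and 1 substrate lower. The mean of probe sets gave 1, 1 and 3 higher, and 1 other MMP and 1 substrate lower. Dim genes left out gave 2 activators higher and 1 substrate lower, centring and the second quantile normalization gave 1 substrate lower each, and trend and robust settings 3 activators higher. With an array left out, other MMPs higher were 0 to 2, the ADAMTS list higher 1 to 2 and lower 0 to 3, and activators higher 0 to 4.

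Signs turned only for member changes near 0 that were not called. Under anti-VEGF against metastasis IgG, the mean of probe sets gave -0.0147 for Mmp14, 0.0612 for Adamts4 and 0.0185 for Adamts9, centring gave 0.0134 and the second quantile normalization 0.0064 for Adamts4. With an array left out, Adamts4 ranged from -0.12 to 0.15, Adamts9 from -0.134 to 0.0633, Mmp14 from -0.0992 to 0.0960, Timp1 from -0.0483 to 0.103 and Timp4 from -0.0231 to 0.190. In anti-VEGF against healthy IgG, Mmp3 ranged from -0.17 to 0.16 and Adamts9 from -0.0934 to 0.104, with 0.10 for the mean of probe sets, and in metastasis IgG against healthy IgG Adamts9 ranged from -0.0177 to 0.103.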
